A study of Oryza sativa with 6 samples.

Results

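The peaks described here lie on the long arm of rice chromosome 2, and were chosen by position alone: every peak of the BG4-DNA-IP-seq lists on chromosome 2 with its summit from 18000000 to 35400000 of MSU v7.0. This window of 17.4 Mb held 12473 of 289038 peaks over the 4 lists (4.32%), and it makes up 4.66% of the 373.2 Mb that the 12 chromosomes span up to their last peak. It held 3393 of 73199 peaks of K+PEG replicate 1, 3602 of 81992 of K+PEG replicate 2, 2590 of 64874 of K+PDS replicate 1 and 2888 of 68973 of K+PDS replicate 2. It covers 48.4% of chromosome 2 and stops 536 kb before the last peak of the chromosome, so the outermost end of the arm is left out. The label "long arm" was taken as given, since the peak lists hold no centromere position or gene.

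The DNA came from the parts above ground of wild-type seedlings of the Japonica cultivar Nipponbare, which were crosslinked with formaldehyde at 2 weeks. Fragmented DNA was denatured, refolded in 150 mM KCl and bound by BG4, a single-chain antibody that recognises G-quadruplexes (G4s). The K+PEG libraries (n = 2) had 40% PEG in the incubation buffer, and the K+PDS libraries (n = 2) had 5.0 μM PDS by the methods, although the protocol deposited with every sample names PEG alone. Because the DNA was refolded in a tube, the peaks report which sequences could fold under each buffer and not which were folded in the plant. Input DNA (2 libraries) was not used here. The methods call the replicates biological, and p-values measure only the spread between these libraries.

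G4s are 4-stranded structures in which guanines pair in stacked planes that cations such as potassium stabilize. PEG is a crowding agent that takes up free water and favors compact folds, whereas PDS (pyridostatin) is a small molecule that binds the outer planes of a folded G4 and holds it together. The arms of rice chromosomes are rich in genes away from the centromere, while the regions around centromeres are rich in transposable elements and methylated DNA. The annotation and sequence of MSU v7.0 were not used here, so peaks are given by position, without genes, G-rich motifs or sequences.

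The lists differed in depth, which was recovered from the fold enrichment and p-value of the peaks as 7.90e+06 reads for K+PEG replicate 1, 1.33e+07 for K+PEG replicate 2, 5.985e+06 for K+PDS replicate 1 and 7.55e+06 for K+PDS replicate 2. Peak numbers go up with depth, so each library was compared with itself, inside the window and outside it. Peaks carry the word uniq in their names in the K+PDS lists, but not in the K+PEG lists. A filter for uniquely mapped reads in the K+PDS libraries alone is not given in the sources used here, and it cannot be told apart from the condition in any comparison of K+PEG with K+PDS.

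To see whether G4 peaks were as dense on the long arm as elsewhere, peaks per Mb were compared with the rest of the 12 chromosomes. K+PEG replicate 1 had 195 peaks per Mb in the window and 196 in the rest, and K+PEG replicate 2 had 207 and 220.3. K+PDS replicate 1 had 149 and 175, and K+PDS replicate 2 had 166 and 186. The window was thus less dense than the rest in all 4 libraries, with a ratio of 0.994 and 0.940 under K+PEG and of 0.850 and 0.894 under K+PDS. On the log2 scale the ratio was -0.12 ± 0.097 (SD, n = 4), with p = 0.125 in an exact sign-flip permutation test over libraries, two-sided, which is the smallest p that 4 libraries allow (0.375 after Benjamini-Hochberg adjustment over the 6 tests of density, strength and length). Its mean was -0.049 ± 0.057 in the K+PEG pair and -0.20 ± 0.051 in the K+PDS pair (SD, n = 2 each). Both K+PDS libraries lay below both K+PEG libraries, a difference of 0.15 that exceeded the spread of either pair (exact permutation test, two-sided, p = 0.333, the smallest that 2 against 2 allow, adjusted p = 0.4). When the summit reads were thinned to the depth of the shallowest library, the ratios were 0.991 and 0.943 under K+PEG and 0.850 and 0.891 under K+PDS.

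Against the other part of chromosome 2, below 18 Mb and beyond 35.4 Mb, the ratio was 1.00 and 0.958 under K+PEG and 0.880 and 0.956 under K+PDS. No centromere position was used, so this part may hold more of the long arm than its outermost end. Against this part as a whole, K+PEG replicate 2 and K+PDS replicate 2 were nearly equal, and the largest gap was that between the replicates 1. This part was uneven. Every step up to position 8000000 was below the library mean in each library, as low as 0.587 times in K+PDS replicate 1. The step that ends at 14000000 had 1.42 and 1.29 times the mean under K+PEG and 1.54 and 1.39 times under K+PDS. Low density was thus not particular to the window on this chromosome. Peaks covered 8.87 and 10.3% of the bases of the window under K+PEG and 6.98 and 7.22% under K+PDS, compared with 9.31 and 11.2% and with 9.19 and 8.95% of the rest of the genome.

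Strength was read from the authors' fold enrichment, the reads at a summit over the local background with 1 added to each. Its window median was 3.68 and 3.60 under K+PEG and 3.61 and 3.20 under K+PDS, and the rest of the genome had 3.79, 3.59, 3.77 and 3.24. The window was lower in 3 of 4 libraries and slightly higher in K+PEG replicate 2, with a mean difference of -0.0723 ± 0.0741 (SD, n = 4; exact sign-flip permutation test, two-sided, p = 0.25, adjusted p = 0.4). It was -0.0492 ± 0.0877 in the K+PEG pair and -0.0954 ± 0.0814 in the K+PDS pair (SD, n = 2 each), so the conditions differed by less than their replicates (exact permutation test, p = 0.667, adjusted p = 0.667). Their order also turned from 0.0462 to -0.0159 without K+PEG replicate 2 and to -0.0114 without K+PDS replicate 1. It was 0.122, without overlap of the conditions, among peaks with a −log10 p from 5 upwards (exact permutation test, p = 0.333, its smallest value). A median of 21, 33, 16 and 17 reads stood behind a summit of the window, in the order K+PEG replicates 1 and 2 and K+PDS replicates 1 and 2, against 21, 32, 16 and 17 in the rest.

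Strong peaks were a small class. In the window, 61 (1.80%) and 75 (2.08%) of the K+PEG peaks and 31 (1.197%) and 8 (0.277%) of the K+PDS peaks had at least 10-fold enrichment. The shares in the rest were 1.92, 2.45, 1.56 and 0.396%, higher in each of the 4 libraries. Of the 1000 strongest peaks of each library, 43 and 32 lay in the window under K+PEG and 31 and 26 under K+PDS. These are 4.30, 3.20, 3.10 and 2.60% of the strongest peaks, whereas the window held 4.64, 4.39, 3.99 and 4.19% of all peaks of these libraries. Among the 100 strongest, 2 and 1 lay in the window under K+PEG and 5 and 3 under K+PDS, so K+PDS replicate 1 was not below its share there. Its peaks ranked 1, 2 and 16 are neighbours, however, from 28716633 to 28721892, so this count rests in large part on 1 place.

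Peaks of the window had a median length of 377 and 395 bp under K+PEG and of 348.5 and 340.0 bp under K+PDS, against 383, 401, 377 and 359 bp in the rest. Window peaks were shorter in 4 of 4 libraries. The mean difference was -14.88 ± 10.96 bp (SD, n = 4; exact sign-flip permutation test, two-sided, p = 0.125, its smallest value, adjusted p = 0.375). Both K+PDS libraries lay below both K+PEG libraries, and the conditions differed by 17.8 bp (exact permutation test, p = 0.333, its smallest value, adjusted p = 0.4). Against the other part of chromosome 2 the conditions overlapped and differed by 5.5 bp (exact permutation test, p = 0.667). Peaks of at least 1000 bp made up 4.24 and 6.996% of the window under K+PEG and 7.10 and 4.88% under K+PDS. In the rest they made up 5.64, 8.005, 10.2 and 7.70%, so long peaks were also scarcer in the window in each library.

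**Figure D1:**
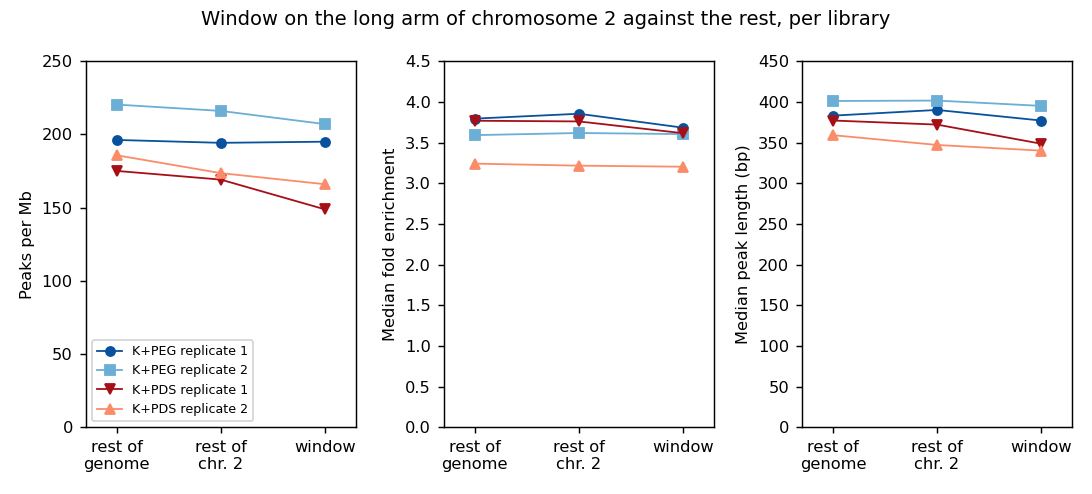
Peaks per Mb, median fold enrichment (a ratio) and median peak length in bp of each library in the rest of the genome, the rest of chromosome 2 and the window; each point is 1 library and lines join its values. K+PDS replicate 1 went from 175 peaks per Mb in the rest of the genome to 149 in the window and from a median length of 377 to 348.5 bp, while K+PEG replicate 1 stayed at 196 and 195 peaks per Mb.

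To find where along the arm the density differed, peaks were counted in 17 steps of 1 Mb and a last step of 0.4 Mb. Over the full steps, K+PEG replicate 1 had from 163 to 239 peaks per Mb with a median of 194, and K+PEG replicate 2 had from 158 to 247 with a median of 208. K+PDS replicate 1 had from 106 to 179 with a median of 156, and K+PDS replicate 2 from 131 to 194 with a median of 169. The densest step was that from 28 Mb in both K+PEG replicates and that from 26 Mb in both K+PDS replicates. The sparsest was that from 33 or 34 Mb in every library. Each library was then divided by its own mean over the 12 chromosomes. K+PDS replicates 1 and 2 were below their mean in 17 and 16 of the 18 steps, where 60.3 and 55.3% of all 380 steps of the genome were. K+PEG replicates 1 and 2 were below it in 9 and 13, where 55.5 and 52.9% of all steps were.

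The step from 28 Mb showed the largest gap between conditions among the full steps. Its 239 and 247 K+PEG peaks were 1.22 and 1.12 times the library means, and its 156 and 168 K+PDS peaks were 0.897 and 0.909 times theirs. The first steps, from 18 and 19 Mb, had the same order, with 1.12 and 1.02 times the mean under K+PEG and 0.909 and 0.871 times under K+PDS in the first. In the step from 26 Mb, the 4 libraries came close together, at 1.01 and 1.02 times the mean under K+PEG and 1.03 and 1.05 times under K+PDS. Counted over the window, both K+PEG libraries had a larger share of their peaks than either K+PDS library in 11 of 18 steps (61.1%), where 35.3% of all 380 steps of the genome were called in this direction. The opposite call was made in 3 steps (16.7%), those from 23, 26 and 32 Mb, against 24.7% of all steps. The conditions overlapped in the remaining 4. Both K+PEG libraries were above and both K+PDS libraries below their means in 4 of 18 steps (22.2%), against 5.53% of all steps, and the reverse was seen in 0 of 18, against 2.89%.

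The steps from 33 and 34 Mb were sparse in all libraries. The last 0.4 Mb of the window had 202.5 peaks per Mb in both K+PEG libraries and 115 and 142.5 in the K+PDS libraries. From 33 Mb on, density was 170.0 and 169.6 peaks per Mb under K+PEG and 109.6 and 136 under K+PDS, against 199, 213, 155 and 171 from 18 to 33 Mb. These are 0.854, 0.796, 0.706 and 0.798 times the density of the first part, and the border at 33 Mb was chosen after the steps had been seen. Strength did not follow this drop, since the median fold enrichment was 3.58, 3.61, 3.62 and 3.22 beyond the border and 3.68, 3.60, 3.61 and 3.20 before it. Across all steps, the median fold enrichment ranged from 3.54 to 3.92 and from 3.40 to 3.81 under K+PEG and from 3.39 to 3.87 and from 3.06 to 3.35 under K+PDS. The highest median of both K+PDS replicates was that of the step from 30 Mb.

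**Figure D2:**
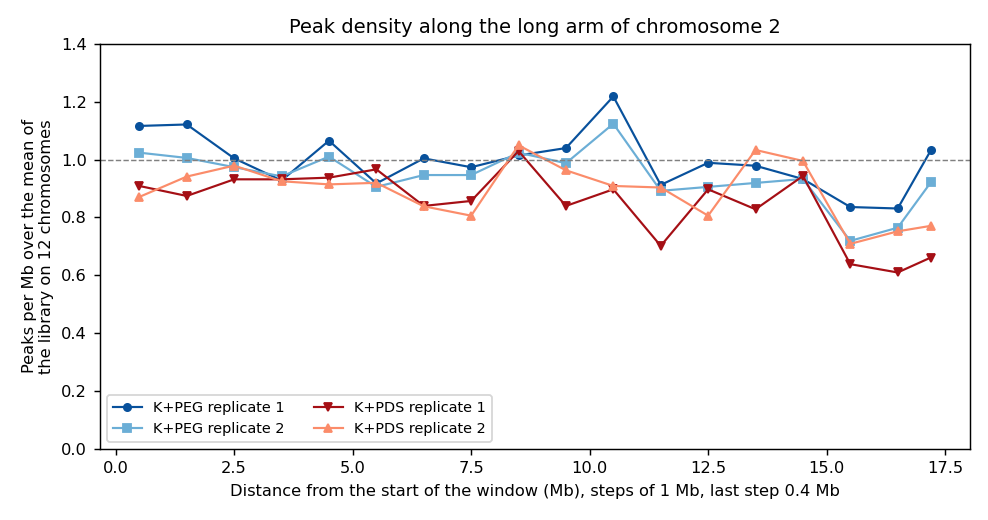
Peaks per Mb in steps along the window, each library divided by its own mean over the 12 chromosomes (y axis, ratio), against the distance from the start of the window in Mb (x axis); each line is 1 library, and the dashed line marks its mean. K+PEG replicate 1 peaks at 1.22 in the step that begins 10 Mb into the window, and all libraries fall to between 0.610 and 0.836 in the 2 full steps at its end.

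The peaks were next sorted into reproducible, specific and common ones with the definitions of the study. Segments that both replicates of a condition cover, by 1 bp or more, are called reproducible. They are called specific where the other condition has no reproducible segment on them. Stretches that reproducible segments of both conditions cover are called common, and these are cut to that overlap. The window held 2706 reproducible K+PEG peaks (156 per Mb, against 162 in the rest) and 1719 reproducible K+PDS peaks (98.8 against 122 per Mb). Of the K+PEG peaks, 1553 (57.4%) were PEG-specific, where 50.1% were over the genome. Of the K+PDS peaks, 573 (33.3%) were PDS-specific, where 35.6% were over the genome. PEG-specific peaks were denser in the window than in the rest, with 89.3 against 80.6 per Mb, and PDS-specific peaks were sparser, with 32.9 against 43.5 per Mb. The 1198 common peaks were sparser as well, with 68.9 against 84.9 per Mb.

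The PEG-specific share of all specific peaks was 73.0% in the window (95% Wilson interval 71.1 to 74.9%) and 65.0% in the rest (64.5 to 65.4%), a ratio of PEG-specific to PDS-specific peaks of 2.71 against 1.86. The intervals cover counting error only and not the spread between libraries. With the same number of strongest peaks in each library the share in the window was 65.3%, and with the peaks kept that had a −log10 p from 5 upwards it was 81.3%. When a single library stands for its condition, its whole list takes the place of a shared one, and the share was 88.7% without K+PEG replicate 1, 81.5% without K+PEG replicate 2, 45.9% without K+PDS replicate 1 and 51.7% without K+PDS replicate 2. The shares of the rest under these settings are not given here, so the 65.0% of the rest does not compare with them. PEG-specific peaks outnumbered PDS-specific ones in 18 of 18 steps, as they did in 88.4% of all steps of the genome. The ratio exceeded that of the rest in 16 steps, where 61.8% of all steps did. It was lowest in the step from 23 Mb, with 77 against 50 peaks, and highest in the last 0.4 Mb, with 43 against 7. In the step from 28 Mb, 118 PEG-specific peaks faced 28 PDS-specific ones. The median length in the window was 293 bp for PEG-specific, 255 bp for common and 244 bp for PDS-specific peaks, compared with 292, 273 and 243 bp in the rest.

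**Figure D3:**
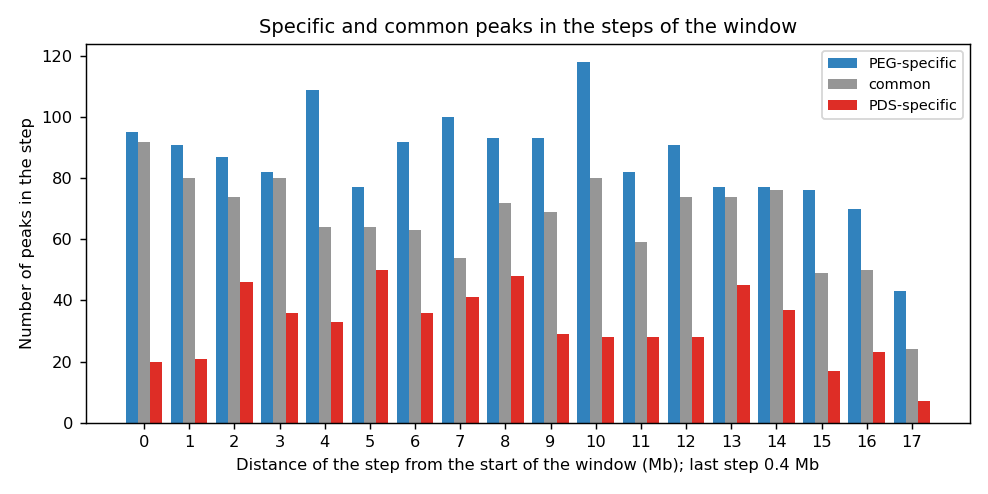
Number of PEG-specific, common and PDS-specific peaks (y axis) in each step of the window, by the distance of the step from the start of the window in Mb (x axis); the last step holds 0.4 Mb. PEG-specific peaks outnumber PDS-specific ones in all 18 steps, as in 88.4% of the steps of the genome, by 118 to 28 in the step at 10 Mb and by 77 to 50 in the step at 5 Mb.

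When the peaks of the 4 lists were merged wherever they overlapped, the window held 5189 sites. Of these, 1111 (21.4%, 95% Wilson interval 20.3 to 22.5%) had a peak in all 4 libraries, against 23.7% of the 115855 sites of the genome. Sites with a peak in both K+PEG libraries and in no K+PDS library numbered 625 (12.04%, 11.2 to 12.96%), against 10.1% of all sites. Sites with a peak in both K+PDS libraries alone numbered 141 (2.72%, 2.31 to 3.20%), against 3.78%. A further 1958 sites (37.7%) came from a single library, against 36.6% in the rest. Those of K+PDS replicate 2 were about as frequent as elsewhere (653 sites, 12.6 against 12.7%), whereas those of K+PEG replicate 1 took a larger share (550 sites, 10.6 against 7.62%). K+PEG replicate 1 shared 77.8% of its window peaks with K+PEG replicate 2, 50.6% with K+PDS replicate 1 and 48.7% with K+PDS replicate 2, compared with 80.0, 59.5 and 55.7% outside the window. K+PDS replicate 1 shared 78.2% with the deepest library, K+PEG replicate 2, and 62.0% with K+PDS replicate 2, an order that also held outside the window, with 74.8 and 64.3%.

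At the sites called in all 4 libraries, the fold enrichment of each library was divided by its own median over all its peaks. At each site the lowest K+PEG value was then set against the highest K+PDS value, and the reverse. K+PEG was the higher, without overlap, at 461 of 1111 sites (41.5%), where 34.7% of the 27477 such sites of the genome were. K+PDS was the higher, without overlap, at 179 sites (16.1%), where 23.3% of all were. The median log2 ratio of K+PEG to K+PDS over these sites was 0.30 in the window and 0.16 in the rest. Without this scaling, 513 sites (46.2%) were higher under K+PEG and 126 (11.3%) under K+PDS, where 38% and 18.4% of all were. The fold enrichment of replicates went together with a Spearman correlation of 0.643 under K+PEG and 0.427 under K+PDS over the 1111 sites, and of 0.589 and 0.546 over the 26366 sites of the rest. Sites within a library share its depth and control, so these correlations are descriptions. The summits of the 4 libraries were spread over a median of 219 bp at these sites, against 240 bp in the rest, but summits within 50 bp of each other were less frequent, at 55 sites (4.95%) against 6.83% in the rest.

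**Figure D4:**
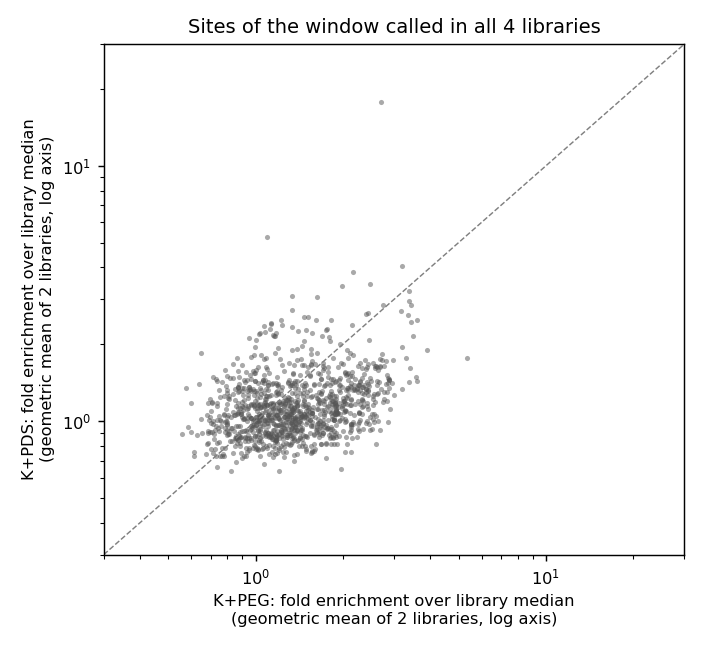
Fold enrichment over the library median of the 1111 sites called in all 4 libraries, as the geometric mean of the K+PEG libraries (x axis) and of the K+PDS libraries (y axis), both on log axes; each point is 1 site and the dashed line marks equal values. More sites lie below the line than above it, and the highest point is the site from 28719172 bp on, where the deposited fold enrichment was 66.3 and 57.7 in the K+PDS libraries and 7.98 and 12.4 in the K+PEG libraries.

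The strongest peak of both whole K+PDS lists lies in the window, on chromosome 2 of MSU v7.0 at the site from 28719172 to 28721892. Its fold enrichment was 66.3 and 57.7 in K+PDS replicates 1 and 2 and 7.98 and 12.4 in K+PEG replicates 1 and 2. Outside the window, no K+PDS peak exceeded 43.9 in replicate 1 and 42.0 in replicate 2. The lower K+PDS value was 4.65 times the higher K+PEG value, so the conditions did not overlap, and the K+PDS mean was 6.08 times the K+PEG mean. The site was picked by these same K+PDS values, which favors such a gap, so the ratios are descriptions. The −log10 p of the authors was 475.5 and 473.2 under K+PDS and 29.1 and 88.0 under K+PEG. The K+PEG peaks rested on 46 and 116 reads at the summit. Reads of the K+PDS peaks of this site were not solved, because such small p-values lie outside the numerical range of the calculation. This is a limit of the calculation and says nothing about these peaks. The summit was at 28720844 in both K+PDS libraries and at 28720847 and 28720843 in K+PEG replicates 1 and 2, so the same few bases carried the maximum under both buffers. In rank by fold enrichment, the site was first in both K+PDS lists but 3673rd and 563rd in the K+PEG lists.

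This site was part of a cluster. K+PDS replicate 1 had 2 peaks in it, from 28719172 to 28720278 at 54.8-fold and from 28720415 to 28721892 at 66.3-fold enrichment, the 2 strongest peaks of that list. The neighbouring site, 86 bp before it, runs from 28716626 to 28719085. Under K+PDS it reached 27.2 and 12.5 (112 and 61 reads), and under K+PEG 3.91 and 4.15 (24 and 52 reads). Again both K+PDS values lay above both K+PEG values, at a site picked in the same way. The peaks of K+PEG replicate 2 and K+PDS replicate 1 that define this site were 2424 and 2412 bp long. Outside the 2 sites, the strongest peaks within 20 kb of the summit had 8.01 and 11.1 under K+PEG. Under K+PDS they had 6.91 and 4.12, and these maxima did not all lie at the same place. Near 28705835, the K+PEG replicates had 4.14 and 11.1 and the K+PDS replicates 6.91 and 3.77, so the conditions overlapped. The 20 kb on either side of the summit at 28720844 held 11 and 13 K+PEG peaks and 8 and 10 K+PDS peaks. The step from 28 Mb thus held the strongest K+PDS signal of the genome while it was the step with the most K+PEG peaks of the window. The number of copies of this stretch in the genome was not analysed here.

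The 5 strongest peaks of each library, this cluster included, formed sites that were mostly shared. These 20 peaks lie in 15 sites, of which 14 had a peak in all 4 libraries and 1 in 3 of them. Each was picked by its fold enrichment in 1 library, which favors higher values in the condition of that library. Gaps between conditions at these sites are therefore descriptions and were not tested. The strongest K+PEG site runs from 20317447 to 20319229 and was first in the window in both K+PEG libraries, at 19.96-fold and 19.46-fold enrichment (102 and 155 reads). It had 7.53 and 5.03 under K+PDS, from 35 and 28 reads. The K+PEG mean was thus 3.14 times the K+PDS mean, with no overlap between conditions. The site from 35204756 to 35206461, in the last 0.4 Mb of the window, had 14.2 and 14.5 under K+PEG and 9.56 and 4.59 under K+PDS. The site from 19345286 to 19346650 had 12.2 and 14.3 under K+PEG and 6.67 and 3.75 under K+PDS, again without overlap. The 1 site that was not found in every library, from 25542479 to 25543262, had 14.7 and 9.88 under K+PEG and 6.41 in K+PDS replicate 1. It had no peak in K+PDS replicate 2.

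Among the top sites of the K+PDS libraries outside the cluster, the conditions separated less. The site from 23111607 to 23112686 had 13.2 and 13.5 under K+PDS and 7.68 and 8.35 under K+PEG, and all K+PDS values were higher. The site from 19628289 to 19628894 had 17.6 in K+PDS replicate 1 but 5.67 in replicate 2, with 8.96 and 11.4 under K+PEG in between. At the site from 23780355 to 23781610, which was among the 5 strongest of K+PEG replicate 1 and of K+PDS replicate 2, the values were 16.2 and 9.88 under K+PEG and 8.09 and 12.1 under K+PDS. The last 2 sites therefore varied as much within a condition as between conditions.

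Some sites were strong under both buffers. By the lowest of the 4 values, the first was the site from 23898341 to 23899000, with 10.9 and 12.7 under K+PEG and 17.3 and 11.5 under K+PDS. The second, from 32692391 to 32693613, had 11.9 and 13.1 under K+PEG and 12.1 and 10.6 under K+PDS. Its 4 peaks rested on 70, 118, 55 and 57 reads, so the reads followed the depth of the libraries while the fold enrichment stayed close. The third, from 23302940 to 23305319, had 8.91 and 9.35 under K+PEG and 10.7 and 13.5 under K+PDS.

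Other sites were called under a single buffer. The strongest site with a peak in both K+PEG libraries and in no K+PDS library runs from 21745481 to 21746586, where it reached 9.11 and 10.1 (46 and 80 reads). The following ones, from 26750563 to 26751703 and from 29151406 to 29152815, had 10.7 and 7.23 and had 7.95 and 7.23. The strongest site of both K+PDS libraries alone, from 23351818 to 23352158, had 8.43 and 5.83 (34 and 28 reads). It was followed by those from 33604956 to 33605405, with 5.10 and 4.78, and from 26739823 to 26740184, with 4.34 and 4.42. The K+PEG-only sites were 1106, 1141 and 1410 bp long in K+PEG replicate 2, and the K+PDS-only sites 334, 230 and 362 bp in K+PDS replicate 2. The lists hold nothing below the p-value threshold of 0.01, so a missing peak is a call and no measure of absent signal.

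Neighbouring summits in the window were a median of 3515 and 3327 bp apart in the K+PEG replicates and of 3435 and 3621 bp in the K+PDS replicates. The medians over all chromosomes were 3214, 2865, 2716 and 3009 bp, each shorter than in the window. Distances of at least 20 kb made up 1.92 and 1.36% of all distances in the window under K+PEG and 7.15 and 4.30% under K+PDS, compared with 2.44, 1.44, 5.30 and 3.76% over all chromosomes. Wide intervals were therefore more frequent in the window than in the genome under K+PDS and less frequent under K+PEG. The longest stretch free of any peak of the 4 libraries ran from 21241461 to 21301144, over 59684 bp. The second, from 34107378 to 34161036 (53659 bp), and the fourth, from 34077713 to 34107104 (29392 bp), lie side by side in the sparse step from 34 Mb.

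To place the window among like regions, a stretch of the same 17.4 Mb, ending at the same distance from the last peak, was taken from each of the 12 chromosomes. On shorter chromosomes such a stretch can include the centromere. The ratio of peak density to the rest of the genome under K+PDS was lowest on chromosome 1, with 0.765 and 0.855, and below 1 in all 4 libraries on chromosomes 1, 2, 4 and 9. The stretch of chromosome 4 had 0.949 and 0.893 under K+PEG and 0.793 and 0.919 under K+PDS. On chromosome 12 it was 1.02 and 1.03 under K+PEG and 1.18 and 1.09 under K+PDS, the opposite order of the conditions. The difference of the log2 ratios, K+PEG minus K+PDS, was 0.19 on chromosome 1, 0.15 on chromosome 2, 0.11 on chromosome 4 and 0.098 on chromosome 3, and between -0.14 and 0.018 on the other chromosomes. The ratio of PEG-specific to PDS-specific peaks had the same leading chromosomes, with 3.04, 2.71, 2.51 and 2.48 on chromosomes 1, 2, 4 and 3. The low density and the surplus of PEG-specific peaks were therefore shared with chromosomes 1 and 4, and no test of the window against these stretches was made.

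**Figure D5:**
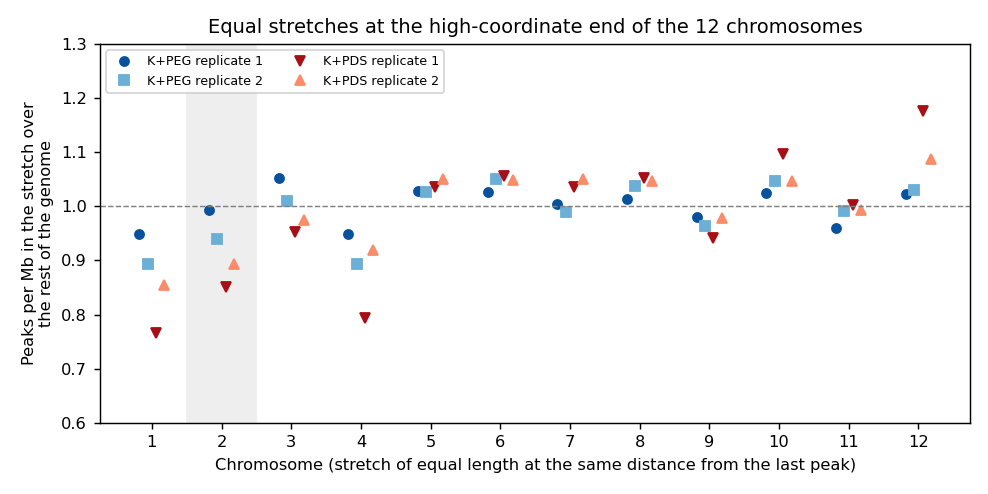
Peaks per Mb in stretches of 17.4 Mb over the rest of the genome (y axis, ratio, from 0.6) for the 12 chromosomes (x axis); each point is 1 library, the dashed line marks equal density and the shaded column is the window on chromosome 2. K+PDS replicate 1 ranges from 0.765 on chromosome 1 to 1.18 on chromosome 12, and lies at 0.850 on chromosome 2.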

How the data were processed

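BG4-DNA-IP-seq peaks of 4 libraries were analysed, and the condition and replicate of each came from the sample labels. According to the methods, reads were trimmed by the authors (Trim Galore 0.4.4) and mapped (BWA 0.7.17, MSU v7.0). Alignments over 50 bp were kept, duplicates were removed with SAMtools 1.5, and the authors ran MACS2 2.1.1 on each library alone at p = 0.01. The control used is not given in the sources used here. The deposited fold enrichment is a ratio, the deposited −log10 of p and of q describes the summit, and the deposited score was not used. Starts count from 0 in the lists and from 1 in the text.

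Peaks were placed by summit. Density, median fold enrichment and median length in the window minus the rest of the 12 chromosomes gave 1 value per library, compared by exact permutation tests. Overlaps came from bedtools 2.31.1, and tests from scipy 1.17.1 under Python 3.11.15. Reads at a summit were solved from fold enrichment and p under a Poisson distribution. They matched within 0.001 on the −log10 scale for all but 4 peaks, of which 3 belong to the strongest K+PDS site. The p-values of these 3 were too small for the numerical range of the calculation. Depth assumes a fragment extension of 200 bp. The functions were tested on simulated data. The sites named are the 5 strongest peaks of each library and the 3 strongest sites called in all 4, in K+PEG only and in K+PDS only. The window, sets and rules were chosen with earlier results of these data known. Alternatives were stricter peaks, equal peak numbers, other placements, borders and overlaps, thinning, and each library left out.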

Additional observations from a re-analysis of the deposited data

Results flagged for a closer look

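In 4 steps of 1 Mb, both K+PEG libraries lay above their own mean density over the 12 chromosomes while both K+PDS libraries lay below theirs, which was the case in 5.53% of the 380 steps of the genome. The log2 difference, K+PEG minus K+PDS, was 0.27 in the step from 18 Mb, 0.23 in that from 19 Mb, 0.16 in that from 22 Mb and 0.37 in that from 28 Mb of chromosome 2. These differences were not tested, and with 2 libraries per condition no exact test could pass 0.05. In no step were both K+PDS libraries above and both K+PEG libraries below their means, against 2.89% of all steps.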

How the results depend on the processing

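The lower density and shorter length of the window, and the order of the conditions in both, kept their direction under all alternatives, with a log2 density ratio from -0.16 to -0.076 and a difference of conditions from 0.097 to 0.19. The length difference of the conditions went from 17.8 to 5.5 bp against the other part of chromosome 2, with p = 0.667 in the exact permutation test, and their libraries then overlapped. No test could pass 0.05. The difference of the conditions in fold enrichment was -0.0134 against the other part of chromosome 2 and ranged from -0.0159 to 0.108 when a library was left out. It was 0.122 among peaks from a −log10 p of 5 upwards and 0.0883 with equal numbers of peaks, in both without overlap of the conditions. With a −log10 p of at least 5, the PEG-specific share was 81.3%, 1 step was higher under K+PDS, and 642 four-library sites were left, of which 290 were higher under K+PEG and 102 under K+PDS. With equal numbers of peaks, the share was 65.3% and 1 step was higher under K+PDS. When specific meant free of any peak of the opposite buffer, the share was 77.3%. With a reciprocal overlap of 50%, 450 four-library sites were left, 205 higher under K+PEG and 52 under K+PDS. With 500 kb steps, 22 steps were higher under K+PEG, among more steps by construction. Leaving out a library gave shares from 45.9 to 88.7%, and from 547 to 801 sites higher under K+PEG and from 327 to 380 under K+PDS, because a single library then stands for a condition. These PEG-specific shares and counts of steps and sites are for the window alone. Genome values under the same settings are not given here, so how the window compares with the genome under them was not tested. The replicate block left the density difference at 0.15 and raised its p to 0.5, the smallest that 2 pairs allow. Same-numbered libraries deviated in opposite directions (r = -0.438 over 380 steps), and the crossed pairing, added afterwards, called 0 of 3 differences at 0.05, where its smallest p is also 0.5.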
